A study of Mus musculus with 12 samples.

Results

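The genes described here encode the subunits of the mitochondrial respiratory chain that are carried in the nucleus. They were chosen by symbol alone, as the rows whose symbol begins with Ndufa, Ndufb, Ndufc, Ndufs or Ndufv and a digit, Uqcr, Cox4 to Cox8 or Atp5, or is Sdha, Sdhb, Sdhc or Sdhd. No measured value entered the choice. The rule found 87 of the 21004 genes in the table: 40 of complex I, 4 of complex II, 8 of complex III, 18 of complex IV and 17 of complex V. Livers of ICR mice, an outbred strain, were sequenced from total RNA at 8 weeks of age, in 12 libraries. There were 3 control libraries, 3 with busulfan, 3 with L.J. at 10 mg/kg, and 3 with busulfan plus L.J. at 10 mg/kg. Busulfan is an alkylating drug that crosslinks DNA. The labels do not spell out L.J., the series' design text mentions FMT without linking it to L.J., and no dose of busulfan, genotype or sex is given. No label says whether replicates are different animals, and p-values therefore reflect only the spread between these samples, which may be technical.

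The respiratory chain passes electrons from NADH (complex I) and succinate (complex II) through ubiquinone, complex III and cytochrome c to oxygen at complex IV. Complexes I, III and IV pump protons across the inner mitochondrial membrane, and complex V, the ATP synthase, uses their return to make ATP. Most subunits are made in the cytosol from nuclear genes and imported, while a few, including the catalytic core of complex IV, are made from mitochondrial DNA. The 13 genes of mitochondrial DNA are not analysed here. Liver uses the chain to drive gluconeogenesis, urea synthesis and the oxidation of fatty acids.

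The DNA-binding factor NRF1 and the ETS factor GABP are known as activators of these genes, and YY1 binds many of them as well. Promoters are shown to compare subunits used in most tissues with isoforms known from muscle, and to show windows in which motifs of these factors occur. Each window runs from 250 bases before to 50 bases after the RefSeq start of the gene, on build GRCm38.p6, which has the coordinates of mm10. Windows are written 5′ to 3′ on the strand of the gene. Capitals mark the NRF1 core CGCATGCG, the ETS core CCGGAAG, the YY1 motif AAGATGGCG or the TATA box TATAAA, each searched on both strands, so that CTTCCGG is an ETS core read on the other strand. Cox8a, a small complex IV subunit made in most tissues, comes first, followed by its muscle and heart isoform Cox8b, then Cox7a2 and its muscle and heart isoform Cox7a1. Cox6a1 of complex IV, Uqcr11 of complex III and Atp5j of complex V each held more than 1 of the motifs.
Cox8a: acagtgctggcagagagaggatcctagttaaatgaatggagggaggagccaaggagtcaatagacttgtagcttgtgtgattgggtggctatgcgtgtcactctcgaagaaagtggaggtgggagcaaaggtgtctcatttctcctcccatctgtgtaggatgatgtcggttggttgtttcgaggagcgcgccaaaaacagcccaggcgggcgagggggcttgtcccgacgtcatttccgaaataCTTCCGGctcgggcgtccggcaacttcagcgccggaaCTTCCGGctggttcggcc
Cox8b: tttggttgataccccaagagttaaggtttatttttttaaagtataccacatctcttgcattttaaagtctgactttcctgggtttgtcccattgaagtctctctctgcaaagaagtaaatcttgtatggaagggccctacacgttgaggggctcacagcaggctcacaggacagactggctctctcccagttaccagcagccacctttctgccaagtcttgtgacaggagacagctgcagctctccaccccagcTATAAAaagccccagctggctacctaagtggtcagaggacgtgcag
Cox7a2: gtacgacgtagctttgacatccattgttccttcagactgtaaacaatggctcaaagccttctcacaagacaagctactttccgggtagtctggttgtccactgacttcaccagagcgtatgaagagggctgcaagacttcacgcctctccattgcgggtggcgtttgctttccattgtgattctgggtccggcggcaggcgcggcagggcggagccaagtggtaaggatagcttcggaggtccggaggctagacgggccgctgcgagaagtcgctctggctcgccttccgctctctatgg
Cox7a1: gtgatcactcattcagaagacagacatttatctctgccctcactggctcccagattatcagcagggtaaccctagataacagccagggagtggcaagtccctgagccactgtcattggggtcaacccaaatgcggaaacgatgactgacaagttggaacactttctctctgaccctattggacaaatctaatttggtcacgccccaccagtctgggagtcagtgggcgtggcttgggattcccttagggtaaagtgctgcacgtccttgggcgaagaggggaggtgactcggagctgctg
Cox6a1: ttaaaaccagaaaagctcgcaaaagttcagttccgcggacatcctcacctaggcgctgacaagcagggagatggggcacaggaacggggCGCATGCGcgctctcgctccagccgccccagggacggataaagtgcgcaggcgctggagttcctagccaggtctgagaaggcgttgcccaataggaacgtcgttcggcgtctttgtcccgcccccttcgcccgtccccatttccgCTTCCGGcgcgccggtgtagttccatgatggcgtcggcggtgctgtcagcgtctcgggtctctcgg
Uqcr11: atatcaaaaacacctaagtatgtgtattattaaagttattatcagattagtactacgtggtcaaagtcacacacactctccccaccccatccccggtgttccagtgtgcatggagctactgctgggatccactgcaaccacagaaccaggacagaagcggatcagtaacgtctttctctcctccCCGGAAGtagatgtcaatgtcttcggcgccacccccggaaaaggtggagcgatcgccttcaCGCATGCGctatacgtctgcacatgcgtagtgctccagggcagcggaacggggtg
Atp5j: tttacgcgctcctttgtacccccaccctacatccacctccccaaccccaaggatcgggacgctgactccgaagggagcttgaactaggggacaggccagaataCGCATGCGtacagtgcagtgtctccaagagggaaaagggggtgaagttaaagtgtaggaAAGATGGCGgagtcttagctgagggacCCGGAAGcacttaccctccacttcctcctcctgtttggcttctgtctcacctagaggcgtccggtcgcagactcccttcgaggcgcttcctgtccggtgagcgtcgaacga

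The Cox8a window, at chr19:7217567-7217866, held the ETS core across the start and again after it, 19 CpG dinucleotides and 56% G and C. The Cox8b window, at chr7:140900397-140900696, held the letters of a TATA box after the start and not before it, 2 CpG and 48.3% G and C. Neither window of the other pair, at chr9:79759804-79760103 for Cox7a2 and chr7:30183921-30184220 for Cox7a1, held any of the 4 motifs, and they had 20 and 7 CpG. The Cox6a1 window, at chr5:115348909-115349208, and the Uqcr11 window, at chr10:80406772-80407071, each held the NRF1 and the ETS core. The Atp5j window shown, at chr16:84834927-84835226, was the 1 window among those of the subunits that held the NRF1, ETS and YY1 motifs together, as 5 windows of all genes did. Another Atp5j window, at chr16:84835576-84835875, held none of the 4 motifs, and the window with the most motifs was the one shown.

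RefSeq windows were found for 69 of the 87 subunits, 74 windows in all because some genes have more than 1 start, and were set beside 32851 windows of 27025 genes. The NRF1 core was in 9 subunit windows (12.2%) and in 1.87% of all windows. The ETS core was in 16 (21.6%) against 8.86%, and the YY1 motif in 7 (9.46%) against 1.4%. At least 1 of these 3 motifs was in 26 subunit windows (35.1%) and in 11.5% of all. The TATA box was in 8 (10.8%) against 13.6%. The subunit windows held a median of 19 CpG and 57.3% G and C, against 7 CpG and 52.7% over all windows. These counts are of letters in a window and say nothing of binding, and they carry no test.

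The values are FPKM, fragments scaled by transcript length and by the fragments of the library, so that levels of different genes are compared per length. Respiratory chain transcripts were among the abundant ones of the liver. The mean over the 12 libraries was at least 100 FPKM for 39 of the 87 (44.8%), against 3.06% of all genes in the table, and at least 10 FPKM for 75. The median of these means was 82.1 FPKM, against 6.82 FPKM over the 10786 genes that entered the tests. A gene was tested if 3 or more libraries held 1 FPKM or more, and 80 of the 87 did so. The 7 that did not were Ndufb4b, Cox4i2, Cox6a2, Cox6b2, Cox7b2, Cox8b and Cox8c.

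**Figure D1:**
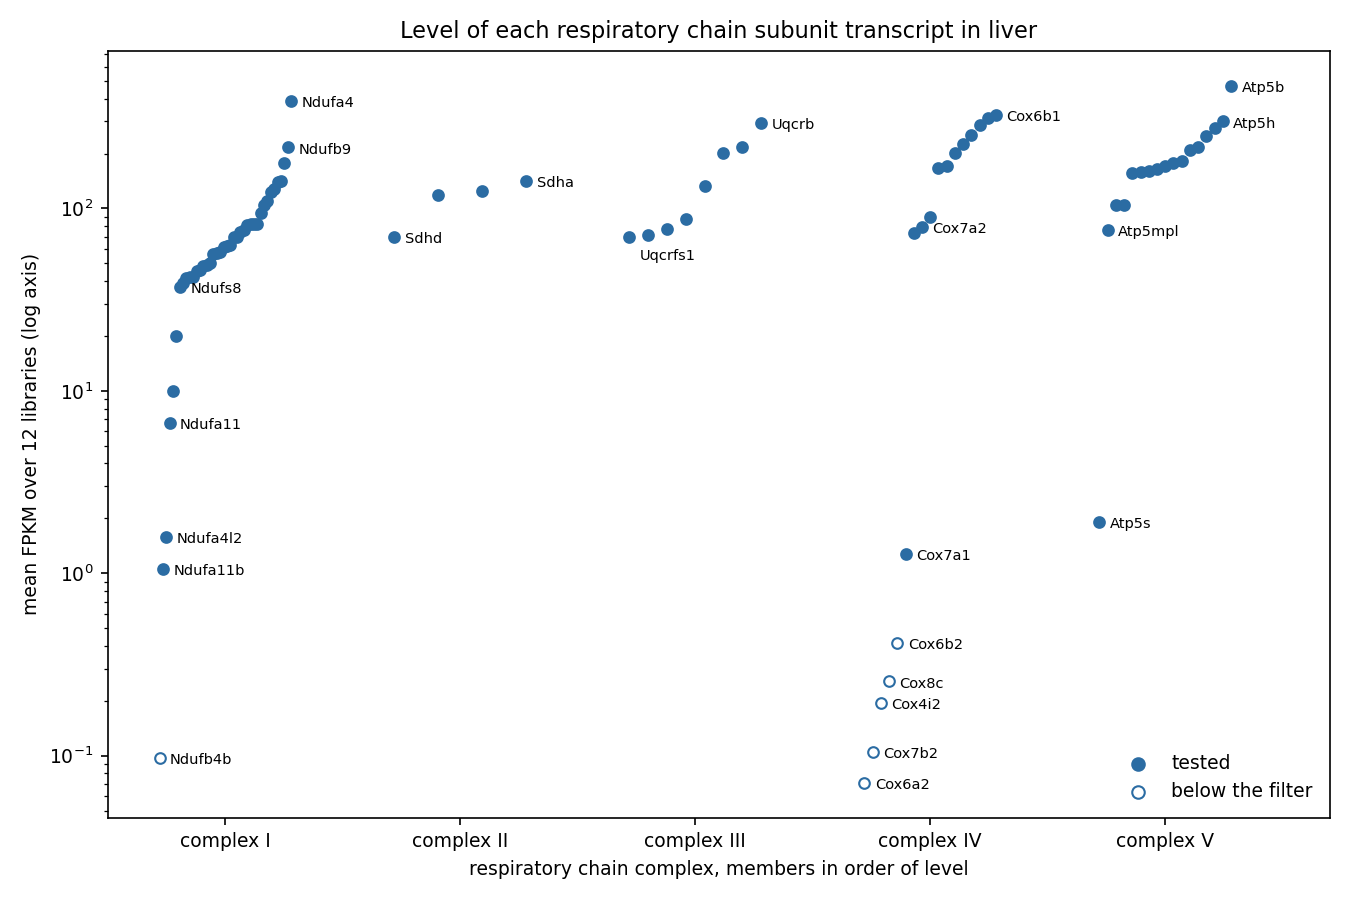
Mean FPKM over the 12 libraries (log axis) of each subunit transcript, ordered by level within its complex; filled points entered the tests and open points did not, and Cox8b, listed at 0 in every library, is not drawn. Most subunits lie within a narrow band, and the tissue-specific isoforms of complex IV lie far below it.

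Complex I takes electrons from NADH. Its most abundant transcript was Ndufa4, long counted with complex I and now assigned to complex IV, at a mean of 390 FPKM (SD 44.8, n = 12). Ndufb9 followed at 216 FPKM and Ndufa3 at 177 FPKM, both accessory subunits without redox centres. The lowest of complex I that were tested were Ndufa4l2, a relative of Ndufa4 known from hypoxic cells, at 1.58 FPKM and Ndufa11b, annotated as a transcribed pseudogene, at 1.06 FPKM. The median over the 39 tested genes of complex I was 62.5 FPKM. Ndufb4, Ndufb4b and Ndufb4c are near copies of one another, as are Ndufa11 and Ndufa11b, so the reads of each set could have been split and their values are uncertain.

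The nuclear core subunits of complex I carry the electron path and are conserved from bacteria. Of those described here, means ran from 70 FPKM for Ndufs3 through 56.3 FPKM for Ndufv1, which binds NADH and FMN, 48.6 FPKM for Ndufv2, 45.9 FPKM for Ndufs7 and 42.1 FPKM for Ndufs1 to 37.2 FPKM for Ndufs8. Ndufs1, Ndufs7 and Ndufs8 are among those that carry iron-sulfur clusters. The order of these neighbours does not hold in every library, since their SDs over the 12 libraries ran from 3.35 FPKM for Ndufv2 to 16.9 FPKM for Ndufs3.

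Complex II, succinate dehydrogenase, also serves the tricarboxylic acid cycle. Sdha, the flavoprotein that oxidises succinate, had a mean of 142 FPKM (SD 16.6, n = 12), Sdhc 125 FPKM (SD 14.8), Sdhb 119 FPKM (SD 25.8) and Sdhd 70 FPKM (SD 8.66). Sdhb carries the iron-sulfur clusters, and Sdhc and Sdhd anchor the complex in the membrane. The first 3 overlapped over the libraries, and Sdhd lay below the other 3 in every library.

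Complex III passes electrons from ubiquinol to cytochrome c. Uqcrb had the highest mean at 296 FPKM, followed by the hinge protein Uqcrh at 217 FPKM and the small subunit Uqcr11 at 200.2 FPKM. Uqcrq at 71.1 FPKM and the Rieske iron-sulfur protein Uqcrfs1 at 70 FPKM were the lowest. All 8 were tested, and the highest mean was 4.22 times the lowest.

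Complex IV, cytochrome c oxidase, has several subunits with paired isoforms, and the forms known from most tissues stood far above the forms known from muscle, lung or testis. Cox6b1 at 327 FPKM, Cox6a1 at 312 FPKM and Cox7c at 285 FPKM were the highest, and Cox4i1 had a mean of 224 FPKM and Cox8a 253 FPKM. Cox4i2, the lung form, lay between 0 and 0.42 FPKM in the 12 libraries. Cox6a2, the heart and muscle form, lay between 0 and 0.2 FPKM, and its partner Cox8b was listed at 0 in every library. The testis forms Cox6b2, Cox7b2 and Cox8c had means of 0.413, 0.105 and 0.255 FPKM. Cox7b, the common form, had a mean of 90 FPKM.

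Cox7a1, the heart and muscle form of that subunit, was the 1 isoform of this kind that was tested, at a mean of 1.28 FPKM. Cox7a2, the common form, had a mean of 78.9 FPKM, and stood between 34.2 times Cox7a1 (control replicate 2) and 74.8 times (L.J. replicate 1). Cox7a2l, which joins complexes III and IV in supercomplexes, had a mean of 73.5 FPKM. Ndufa4 stood between 158 and 482 times Ndufa4l2. Markers of striated muscle were near 0: their sum over 8 genes lay between 0.55 and 1.78 FPKM, mostly Mylpf, with Tnnc2 at 0 in every library, and those of adipocytes summed to at most 0.75 FPKM with Ucp1, Plin1 and Lep at 0.

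Complex V makes ATP. Atp5b, the catalytic beta subunit, at chr10:128083307-128090388 on mm10, had the highest mean of all 87 at 471 FPKM (SD 42.5, n = 12). Atp5h, subunit d of the stalk, followed at 299.8 FPKM and Atp5a1, the alpha subunit, at 275 FPKM. The ATP synthase head holds alpha and beta in equal number, and the Atp5b transcript stood between 1.49 and 2.06 times that of Atp5a1. Atp5b stood between 2.77 and 3.17 times Atp5c1, the single gamma subunit of the rotor, a narrow span over the 12 libraries. The lowest were Atp5mpl, a small associated protein, at 76.2 FPKM and Atp5s at 1.91 FPKM, which RefSeq names Dmac2l.

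The proton-carrying ring of complex V is built of subunit c, whose identical mature protein comes from 3 genes that differ in their import signals. Atp5g3 gave between 40.3% and 55.3% of their summed FPKM, Atp5g1 between 27.5% and 33.6%, and Atp5g2 between 17.2% and 26.1%. Atp5g3 was the highest of the 3 in every library. Its share was lowest in L.J. replicate 1 and control replicate 1, at 40.3% and 43.3%.

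The balance between complexes was nearly fixed. Complex I held between 30.3% and 31.1% of the summed FPKM of the 87 genes in every library, complex II between 4.31% and 4.9%, complex III between 11.2% and 11.7%, complex IV between 21.2% and 22.8% and complex V between 30.4% and 32.5%. The summed FPKM itself moved more, from 9118 in L.J. replicate 1 to 11567 in control replicate 1. The rank correlation of a library's 87 values with the mean of the other 11 lay between 0.953 (control replicate 1) and 0.996, as a description over genes that share a library.

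**Figure D2:**
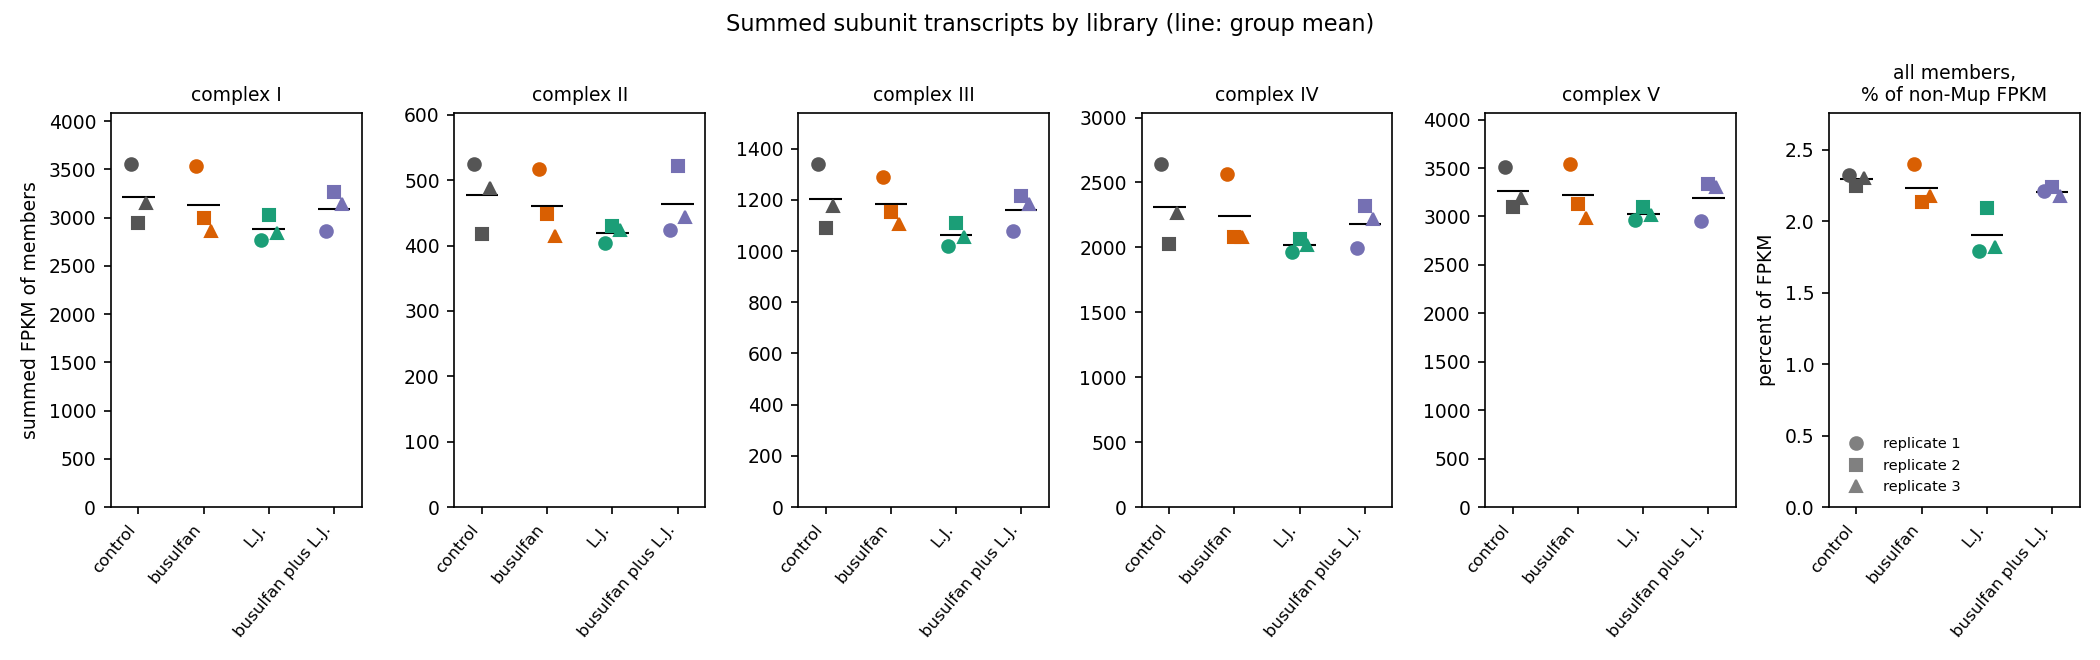
Summed FPKM of the subunits of each complex in each library (first 5 panels) and the share of all 87 in the FPKM left after the Mup genes are taken out (last panel, percent); symbols are replicates and lines are group means. The sums of all 5 complexes are highest in control replicate 1 or close to it, and the 3 L.J. libraries lie lowest in the last panel.

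Whole-library features touch these values. Summed FPKM of all genes ran from 514647 to 665060, and the 21 major urinary protein (Mup) genes, very abundant liver transcripts, took between 11.7% and 36.7% of it, except in L.J. replicates 1 and 3, where they took 1.36% and 0.0956%. Hepatocyte markers were high throughout (8 genes, summed FPKM between 30114 and 56395). Neutrophil markers (6 genes) summed to 0.77 to 2.37 FPKM in control, 1.12 to 1.73 in busulfan, 6.66 to 137 in L.J. and 1.39 to 9 in busulfan plus L.J. Pancreatic acinar markers (7 genes) reached 328 FPKM in 1 library with both treatments and at most 25.9 in the other groups. Erythroid markers (6 genes) summed to between 282 and 1528 FPKM over all libraries. In bulk liver, fewer cells of a type and less RNA per cell cannot be told apart.

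Variation between libraries had a clear pattern. Control replicate 1 was the highest of the 12 libraries for 41 of the 80 tested subunits. On the log2(FPKM + 1) scale, 16 stood more than 0.5 above their own mean there, and 10 stood more than 0.2 below. A first principal component over the 80 held 59.6% of their variance, with control replicate 1 (score -4) and busulfan replicate 1 (-2.69) at one end, L.J. replicate 1 next (-0.99) and the other 9 libraries between -0.33 and 2.14. Ndufb4c weighed most in this component (loading -0.485), followed by Ndufa11 (-0.249), and the values of both are uncertain as near copies of other genes. In control replicate 1, 60 of the 80 stood above their own mean and 20 below, and in busulfan replicate 1, 66 above and 14 below, with members of the same complex on both sides.

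Uqcrq, a small subunit of complex III, had 131, 43.5 and 62.3 FPKM in control replicates 1 to 3, 98.4, 62.6 and 61 in busulfan, 88.6, 53.3 and 67.2 in L.J. and 56.6, 66.1 and 62.4 in busulfan plus L.J. Replicate 1 of the first 3 groups was the highest of each. Uqcrh, the hinge protein of the same complex, had 157, 246 and 244 FPKM in control replicates 1 to 3, 192, 240.0 and 212 in busulfan, 166, 225 and 219 in L.J. and 231, 233 and 240.1 in busulfan plus L.J. Here replicate 1 of the same 3 groups was the lowest of each.

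Atp5h of complex V had 211, 347 and 320.2 FPKM in control replicates 1 to 3, 248, 295 and 261 in busulfan, 258, 359 and 384 in L.J. and 299.9, 326 and 288 in busulfan plus L.J. It was lowest of all in control replicate 1 and lowest of its group in busulfan and L.J. replicate 1. Ndufs8 of complex I had 65.8, 24.5 and 30.2 FPKM in control replicates 1 to 3, 53.8, 32.8 and 32.1 in busulfan, 44.6, 30.6 and 28.5 in L.J. and 29.7, 36.5 and 37.1 in busulfan plus L.J., and its 3 highest libraries were replicate 1 of control, busulfan and L.J. Ndufs1 of the same complex had 41.8, 41.5 and 49.1 FPKM in control replicates 1 to 3, 43.4, 42.1 and 41.8 in busulfan, 36.1, 40.2 and 38.1 in L.J. and 39.7, 48.2 and 43.1 in busulfan plus L.J., within a 1.36-fold span.

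The core of complex I split along this line. Ndufv1, Ndufv2 and Ndufs1 had a highest library between 1.29 and 1.36 times the lowest, whereas Ndufs3, Ndufs7 and Ndufs8 spanned 2, 2.34 and 2.68 times, each between control replicates 1 and 2. The ratio of Ndufs8 to Ndufs1 was 1.57 in control replicate 1 and 1.24 in both busulfan and L.J. replicate 1, and lay between 0.591 and 0.86 in the other 9. In complex II, the ratio of Sdhb to Sdha was 1.17, 1.03 and 1.06 in the same 3 libraries and between 0.727 and 0.807 in the other 9. Busulfan plus L.J. replicate 1 did not share the pattern, at 0.749 and 0.763 for these ratios.

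**Figure D3:**
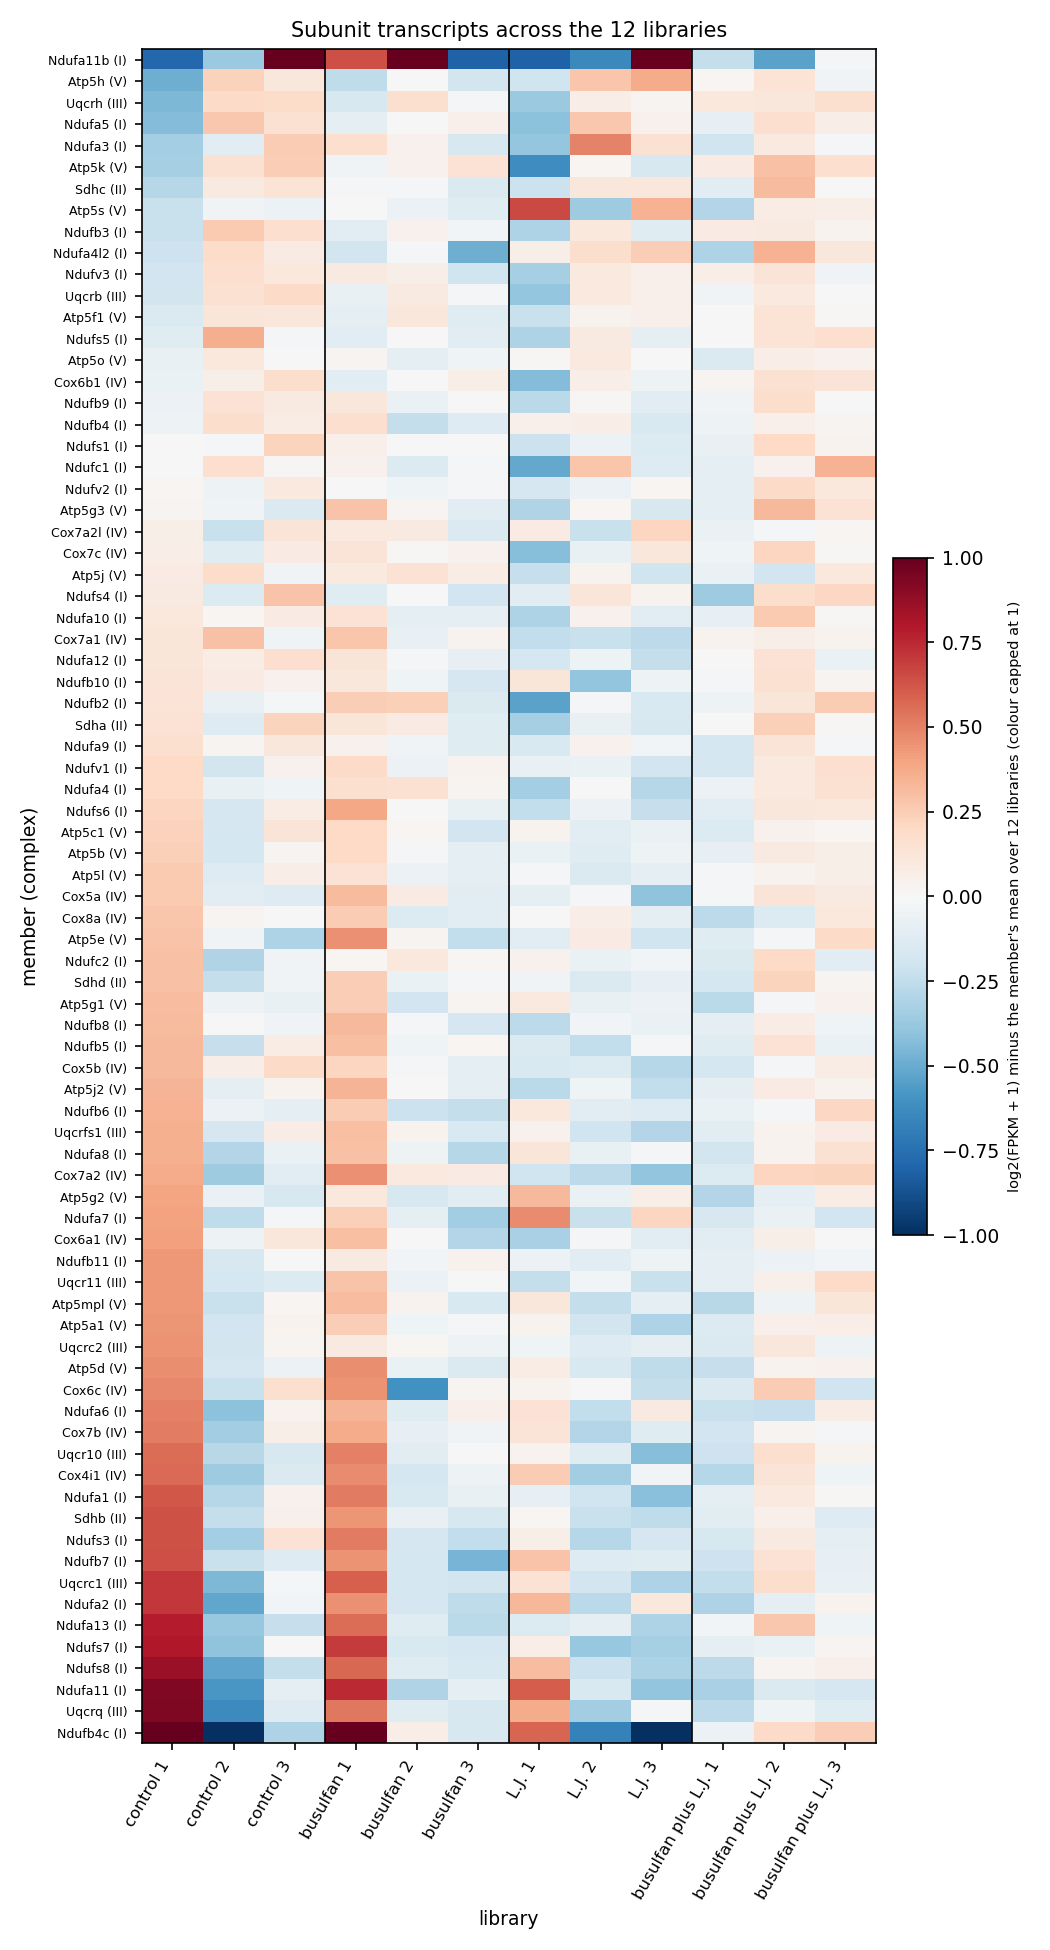
log2(FPKM + 1) of the tested subunits named here minus each one's mean over the 12 libraries (colour), with rows ordered by the value in control replicate 1 and complexes in parentheses. Control replicate 1 and busulfan replicate 1 run in much the same order of colours from top to bottom, which the libraries with both treatments do not show.

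Base composition moved with this pattern. Over the 78 tested subunits with a transcript to read it from, the correlation between a library's deviations and transcript G and C content was 0.352 in control replicate 1, 0.387 in busulfan replicate 1 and 0.291 in L.J. replicate 1. It lay between -0.378 and -0.135 in the other 9, as a description over genes of the same library. Over all tested genes it was 0.167, 0.235 and 0.0992 in the same 3 libraries and between -0.227 and 0.0679 in the other 9. The part of base composition, RNA quality or handling in the pattern was not tested. The labels do not say what the replicate number marks.

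Across the 80 tested subunits, a median of 19.3% of the variance of log2 values lay between the groups, against a median of 32.5% over all tested genes. The degrees of freedom alone give 27.3% as a mean, which is not the same measure as these medians. The median SD within groups was close, at 0.19 for the subunits and 0.20 for all tested genes. Each comparison was fitted with limma on log2(FPKM + 1) over all genes, two-sided, with Benjamini-Hochberg adjustment over the 10786 tested genes and a threshold of 0.05. Several comparisons share the control, busulfan or L.J. libraries and are not independent. In none of the 6 did a subunit pass.

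The first comparison asks what busulfan did alone. By sign, in busulfan against control livers, 29 of the 80 were higher and 51 lower, with a median log2 fold change of -0.03 against 0.04 over all tested genes. No subunit passed limma's adjusted test, where 0% of all genes did, and none had an unadjusted p under 0.05, where 1.29% of all genes did. No subunit had busulfan libraries all above or all below the control libraries, against 5.92% of all genes. The 95% interval lay within a 2-fold change either way for 78 of the 80. The 3 smallest p-values were those of Ndufa4l2 (-0.25, SE 0.18), Cox7a2 (0.24, SE 0.19) and Ndufa9, an accessory subunit of complex I (-0.14, SE 0.12), each with a limma adjusted p of 1.00. Without control replicate 1 the median was 0.06, and without busulfan replicate 1 it was -0.13. With libraries scaled to the same median, 65 of the 80 were lower (all genes 52.2%), and 4 had every busulfan library below every control library, against 3.1% of all genes. Without replicate 1 of both groups, which leaves 2 against 2, 35 were higher and 45 lower, with 8 (all genes 27.9%) entirely above and 21 (all genes 9.61%) entirely below.

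The second comparison asks what L.J. did alone. Subunit transcripts were lower by sign in L.J. livers for 69 of the 80, whereas 22.9% of all tested genes were lower. The median log2 fold change was -0.16 for the subunits and 0.17 over all tested genes. By complex, 34 of 39 were lower in I (median -0.16), 3 of 4 in II (-0.18), 8 of 8 in III (-0.19), 11 of 12 in IV (-0.19) and 13 of 17 in V (-0.11). No subunit passed limma's adjusted test, where 0.25% of all genes did (27, of which 21 were higher), and 3 had an unadjusted p under 0.05 (3.75%), against 23.2% of all genes. No subunit had every L.J. library above every control library, against 17.9% of all genes, and 5 (6.25%) had every L.J. library below, against 2.87%. The 95% interval lay within a 2-fold change for 78 of the 80.

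Cox5b, a matrix-side subunit of complex IV, at chr1:36691487-36693388 on mm10, had 251, 209.5 and 229 FPKM in control replicates 1 to 3, 232, 199 and 188 in busulfan, 179.8, 182 and 164 in L.J. and 177, 198 and 211 in busulfan plus L.J. The L.J. libraries lay below every control library, and the control and busulfan libraries overlapped. The fitted log2 fold change of L.J. against control was -0.38 (SE 0.14, 95% interval from -0.68 to -0.09, limma adjusted p = 0.136).

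Cox7a1, at chr7:30184171-30186030, had 1.46, 1.76 and 1.19 FPKM in control replicates 1 to 3, 1.73, 1.14 and 1.32 in busulfan, 0.9, 0.94 and 0.88 in L.J. and 1.31, 1.35 and 1.32 in busulfan plus L.J. The L.J. libraries lay below all of the other 9, at levels near 1 FPKM where a pseudocount of 1 understates folds. The log2 fold change was -0.37 (SE 0.13, limma adjusted p = 0.128), and 0.29 (SE 0.13, adjusted p = 0.346) for both treatments against L.J.

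Ndufa12, an accessory subunit of complex I, at chr10:94199035-94221440, had 151, 146 and 155 FPKM in control replicates 1 to 3, 151, 137 and 131 in busulfan, 123, 133 and 117 in L.J. and 138, 153 and 132 in busulfan plus L.J. The L.J. libraries lay below every control library and overlapped the other groups. The log2 fold change was -0.28 (SE 0.12, limma adjusted p = 0.189). Ndufs1 of the complex I core also had all L.J. libraries below the control libraries, with a log2 fold change of -0.20 (SE 0.11).

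**Figure D4:**
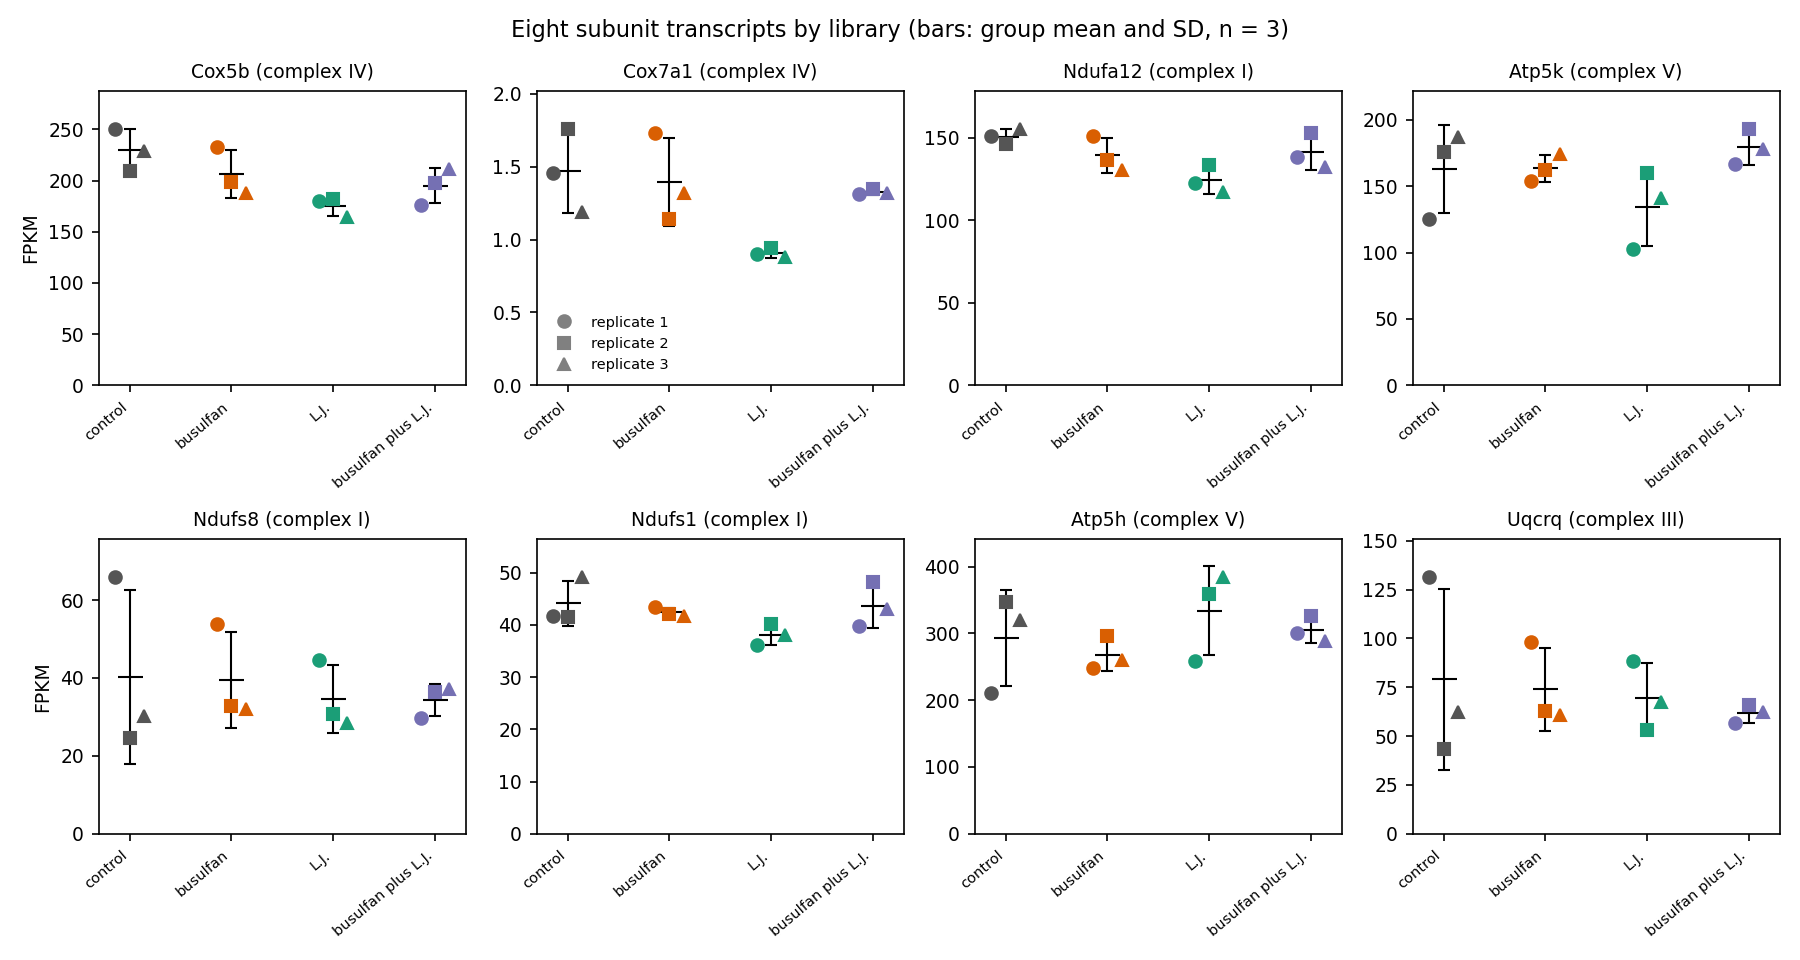
FPKM of 8 subunit transcripts in each library (axes start at 0), with group means and SD as bars (n = 3) and replicates as symbols. In the upper row Cox5b, Cox7a1 and Ndufa12 are lower in L.J. than in control libraries; in the lower row Ndufs8 and Uqcrq are high, and Atp5h low, in replicate 1 of control, busulfan and L.J., where Ndufs1 is not.

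How far the L.J. livers differed depended on what the values were scaled to. The 87 subunits held 2.25% to 2.33% of the FPKM outside the Mup genes in control, 2.13% to 2.40% in busulfan and 2.18% to 2.24% in busulfan plus L.J. The L.J. libraries held 1.80%, 2.09% and 1.82%, below every other library. Without the Mup genes and with each library rescaled, 76 of the 80 were lower in L.J. than in control (median -0.28, all genes 0.07), and 29 had every L.J. library below every control library, against 6% of all genes. With libraries scaled to the same median, the subunit median was -0.37 and Cox5b passed the adjusted test (-0.59, limma adjusted p = 0.0487). Under that scaling, every busulfan library and every library with both treatments also lay below every control library for Cox5b. The same held without the Mup genes and rescaled. Over all genes, 77.8% of the 27 calls were higher in L.J. as deposited, 44.2% of 113 with the same median, 46% of 63 after quantile normalization and 63.2% of 114 without the Mup genes. Control replicate 1 decided much of the size: without it the median as deposited was -0.06, and without control replicate 2 it was -0.24. Without replicate 1 of control and busulfan, 53 of the 80 were lower (all genes 18.9%) and 13 had all L.J. libraries below the 2 control libraries left, against 4.44% of all genes. Leaving out L.J. replicates 1 and 3, the Mup-poor libraries, leaves 1 L.J. library against 3 of control. There 63 of the 80 were lower (all genes 45.5%) and the median was -0.14 (all genes 0.03). Markers of some other liver cells moved in the same comparison, where 22.9% of all genes were lower and their median was 0.17. All 8 Kupffer cell and macrophage markers were higher by sign in L.J. than in control (median log2 fold change 0.81, summed FPKM from 90.4 to 218 against 59.9 to 134), as were all 6 markers of sinusoidal endothelium (0.34, 40.5 to 77.8 against 34.9 to 54.1), with none past the adjusted test by limma and sums that overlapped. Stellate cell and fibroblast markers were split in L.J. against control (3 higher, 3 lower, median -0.04). Of 5 tested erythroid markers, 4 were lower (-0.42), and of 8 hepatocyte markers, 5 were higher (0.07). With both treatments against L.J., 7 of the 8 macrophage and 5 of the 6 endothelial markers were lower by sign (medians -0.15 and -0.13, all genes -0.13). The part of the Mup share and of these and the neutrophil markers in the differences was not tested.

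Atp5s was the 1 subunit with a call in the other direction under any alternative. It had 1.45, 1.79 and 1.75 FPKM in control replicates 1 to 3, 1.85, 1.75 and 1.63 in busulfan, 3.53, 1.24 and 2.63 in L.J. and 1.33, 2.01 and 1.99 in busulfan plus L.J. L.J. replicates 1 and 3 were the highest of the 12 libraries and L.J. replicate 2 the lowest, so the group overlapped control (log2 fold change 0.32, SE 0.21, limma adjusted p = 0.376). Without L.J. replicate 2 it was 0.61 with a limma adjusted p of 0.0233, in a fit where 1800 of all genes passed.

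The third comparison sets both treatments against control. By sign, 28 of the 80 were higher and 52 lower, with a median of -0.04 against 0.04 over all genes. No subunit passed limma's adjusted test (0% of all genes did), none had an unadjusted p under 0.05 (6.93% of all genes), and none had groups that did not overlap (11.8%). The smallest p-values were those of Cox5b (-0.23, SE 0.14, limma adjusted p = 0.81), Cox8a (-0.20, SE 0.16) and Atp5g3 (0.18, SE 0.16). The 95% interval lay within a 2-fold change for 77 of the 80. Without control replicate 1 the median was 0.03. With libraries scaled to the same median, 69 of the 80 were lower (all genes 50.2%), and 6 had every library below every control library, against 8.85% of all genes. Without replicate 1 of control and busulfan, 48 were higher and 32 lower (all genes 31% lower).

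The fourth comparison sets both treatments against busulfan alone, the contrast that the title of the series points to. By sign, 34 of the 80 were higher and 46 lower, with a median of -0.03 against 0.00 over all genes. No subunit passed limma's adjusted test (0% of all genes did) and none had an unadjusted p under 0.05 (3.73%). Ndufb11, a membrane-arm subunit of complex I, was the 1 subunit (1.25%) whose groups did not overlap, against 9.99% of all genes, with every library of both treatments below busulfan. The smallest p-values were those of Ndufa4l2 (0.28, SE 0.18), Atp5j, a stalk subunit of complex V (-0.16, SE 0.13), and Ndufs5, an accessory subunit of complex I (0.17, SE 0.15), each with a limma adjusted p of 1.00. The 95% interval lay within a 2-fold change for 77 of the 80. Without busulfan replicate 1 the median was 0.06 (all genes 0.02), and 67 of the 80 were higher by sign, where 43.5% of all genes were lower. There 9 subunits had every library with both treatments above the 2 busulfan libraries left, against 9.21% of all genes, and 1 had every library below, against 8.2%.

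The fifth comparison sets both treatments against L.J. alone. Subunit transcripts were higher by sign with both treatments for 60 of the 80, whereas 74.7% of all tested genes were lower, and the medians were 0.10 and -0.13. By complex, 28 of 39 were higher in I, 4 of 4 in II, 7 of 8 in III, 9 of 12 in IV and 12 of 17 in V. No subunit passed limma's adjusted test (0.0278% of all genes did), and 2 had an unadjusted p under 0.05 (2.5%, against 13.6%). In 9 subunits (11.2%) every library with both treatments lay above every L.J. library, against 3.01% of all genes, and in none below, against 9.99%. Among them were Uqcrh, Ndufa13, Sdha, Cox5a, Atp5l, Cox7a2, Cox7a1 and Atp5k.

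Atp5k, subunit e at the dimer interface of complex V, had 125, 176 and 187 FPKM in control replicates 1 to 3, 154, 162 and 174 in busulfan, 103, 159.9 and 141 in L.J. and 167, 193 and 178 in busulfan plus L.J. L.J. replicate 1 was the lowest of the 12 libraries, and all 3 libraries with both treatments lay above the L.J. libraries. The log2 fold change was 0.43 (SE 0.19, limma adjusted p = 0.345). Ndufb2, an accessory subunit of complex I, had the third smallest p (0.35, SE 0.16, limma adjusted p = 0.37).

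Without the Mup genes and rescaled, 70 of the 80 were higher with both treatments than with L.J. (median 0.22, all genes -0.03), and 33 had every library with both treatments above every L.J. library, against 7.75% of all genes. Without L.J. replicates 1 and 3, which leaves 3 against 1, 59 of the 80 were higher (median 0.10, all genes 0.01). Over all genes, 47.1% were lower there. Without replicate 1 of busulfan plus L.J., the median was 0.16. The 95% interval lay within a 2-fold change for 77 of the 80.

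The interaction asks whether the change with L.J. differed between livers with and without busulfan. The difference was above 0 for 64 of the 80 subunits, with a median of 0.15 against -0.17 over all genes. No subunit passed limma's adjusted test (0% of all genes did), and none had an unadjusted p under 0.05 (6.54%). The smallest p-values were those of Cox7a1 (0.33, SE 0.18, limma adjusted p = 0.709), Ndufa12 (0.30, SE 0.17) and Ndufs5 (0.34, SE 0.21). The 95% interval lay within a 2-fold difference for 71 of the 80. Without control replicate 1 the median was 0.03.

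**Figure D5:**
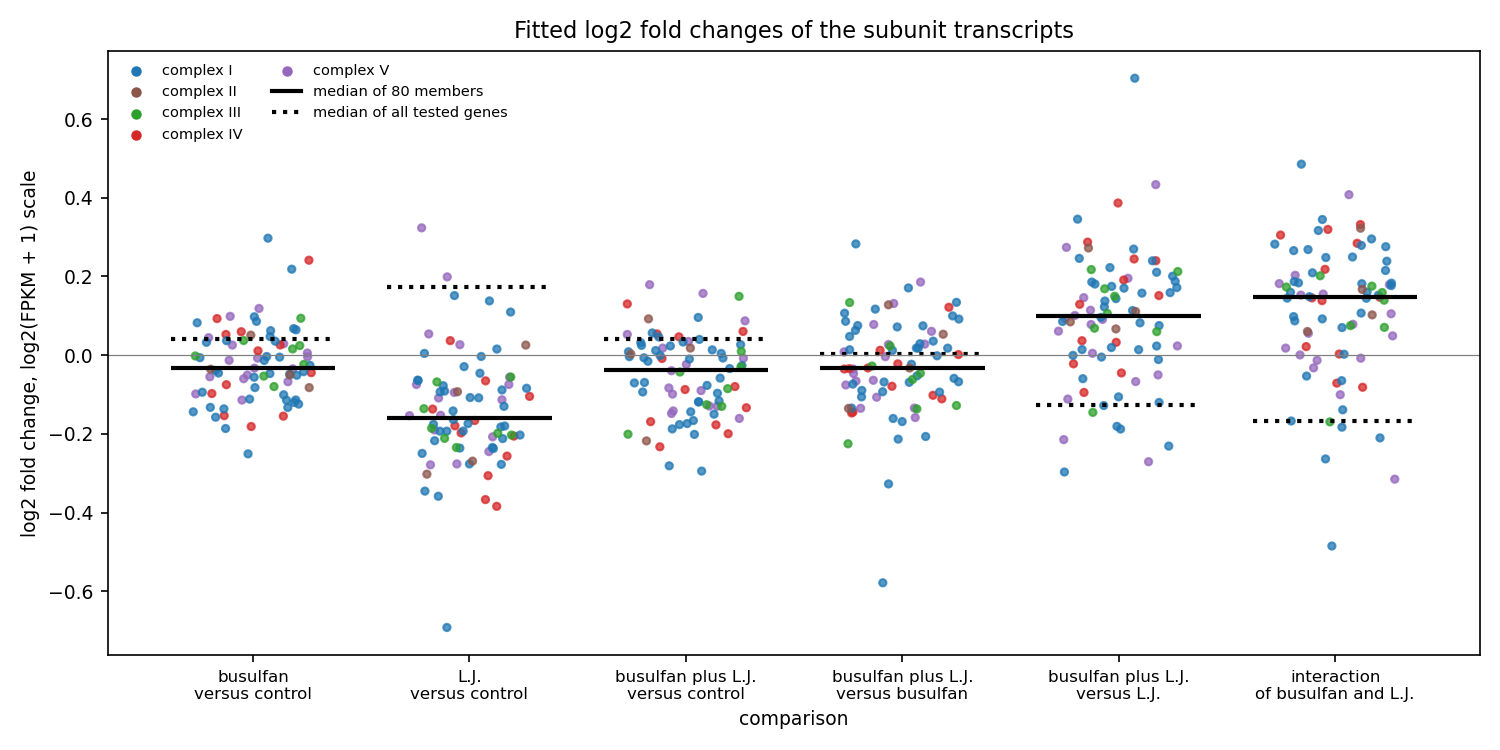
Fitted log2 fold changes on the log2(FPKM + 1) scale of the 80 tested subunits in each comparison, coloured by complex; solid lines are their medians and dotted lines the medians of all 10786 tested genes. The medians are -0.16 and 0.17 in L.J. versus control and 0.10 and -0.13 for both treatments against L.J. alone, 0.15 and -0.17 for the interaction, and differ by less in the others.

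Other genes of the pathway were read from lists, and none of their members passed in any comparison. In L.J. against control, the median log2 fold change was -0.18 over 10 tested carriers and subunits outside the symbol rule (9 of 10 lower), among them cytochrome c1 (Cyc1, -0.28) and the acyl carrier subunit Ndufab1 (-0.15). Atpif1, the inhibitor of the ATP synthase, was the 1 of the 10 that was higher (0.63, limma adjusted p = 0.143). It had 7.56, 8.07 and 10.5 FPKM in control replicates 1 to 3, 7.56, 9.05 and 10 in busulfan, 10.8, 13.8 and 17.7 in L.J. and 7.98, 12.1 and 15.6 in busulfan plus L.J. Its L.J. libraries lay above all 3 control libraries and overlapped those with both treatments.

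For the proteins that build the complexes, the medians were 0.03 for 15 assembly factors of complex I (8 higher, 7 lower), 0.07 for 9 of complexes II and III (6 higher, 3 lower), 0.01 for 20 of complex IV (12 higher, 8 lower) and -0.04 for 4 of complex V (1 higher, 3 lower). The 78 mitochondrial ribosomal proteins, which translate the mitochondrial subunits, had a median of 0.04 (47 higher, 31 lower), and the 17 enzymes of the tricarboxylic acid cycle -0.05 (6 higher, 11 lower). These medians lie between -0.16 over the subunits and 0.17 over all genes, and the difference between the lists was not tested.

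Of 14 regulators of mitochondrial gene expression, 13 were higher by sign in L.J. than in control, with a median of 0.19, close to that of all genes. Nrf1 (0.31), Gabpa (0.21) and Yy1 (0.16), whose motifs are marked above, were among them, and none passed. Ppargc1a, the coactivator PGC-1alpha, had 1.1, 3.33 and 1.38 FPKM in control replicates 1 to 3, 1.08, 1.74 and 1.86 in busulfan, 2.18, 0.87 and 3.17 in L.J. and 0.7, 1.53 and 1.26 in busulfan plus L.J., with groups that overlapped (0.07). Ppargc1b, its relative, was the 1 regulator lower by sign (-0.04). With both treatments against L.J., 13 of the 14 were lower by sign (median -0.12, all genes -0.13).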

How the data were processed

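The values are FPKM, deposited by the authors for 12 libraries in 1 table and used as they stand. Bowtie 0.12.2 and mm10 are named per the submitters' processing notes, and the program that made the FPKM, its annotation and its strand setting were not given in the sources used here. No counts are given and the low values share no common step, so the depth is unknown and no count test was run. Every column of values was matched to a sample by its title.

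The members, the gene lists and the alternatives were chosen with earlier results of these data known. Genes reaching 1 FPKM in 3 or more libraries were tested in R 4.3.3 with limma 3.58.1, as log2(FPKM + 1) with a pseudocount of 1, a mean-variance trend, the 4 groups in a single fit with 8 residual degrees of freedom, and Benjamini-Hochberg adjustment at 0.05. The steps were tested on simulated data. With 3 against 3 libraries an exact permutation test cannot go below 0.1 (two-sided), so none is given for single genes. Subunits named are the 3 with the smallest p in each comparison, the 3 highest and 2 lowest of each complex, complex II, isoform sets, and the complex I core, of which 1 item is not reported here. The others (among them Uqcrh, Ndufb11 and those named for groups that did not overlap) were picked after their values were seen. Transcript base composition comes from each gene's longest protein-coding transcript in GENCODE M21. Promoter windows come from RefSeq on GRCm38.p6. Both were matched by gene ID. Deviations from the group mean were correlated between replicates with the same number. Between control and busulfan the correlations were 0.399, 0.157 and 0.11 over tested genes and 0.804, 0.464 and -0.24 over the subunits. Between control and L.J. they were 0.384, 0.14 and -0.0681 over tested genes and 0.858, 0.537 and 0.824 over the subunits. Between busulfan and L.J. they were 0.283, 0.117 and 0.0524 over tested genes and 0.683, 0.0509 and -0.231 over the subunits. With busulfan plus L.J., the values over tested genes were -0.286, -0.108 and -0.0828 for control, -0.0806, 0.00702 and 0.0175 for busulfan and -0.243, -0.227 and 0.0442 for L.J. Over the subunits they were -0.252, -0.0241 and 0.0132 for control, -0.14, -0.306 and -0.244 for busulfan and -0.249, 0.136 and 0.0541 for L.J. Over tested genes, the values were above 0 for every number between control and busulfan and between busulfan and L.J., and in no other pair of groups. These correlations come from the data and not from the labels. Alternatives were other scalings, pseudocounts, filters, a replicate block and libraries left out, and those without the replicates 1 or the Mup-poor libraries were chosen after seeing the data.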

Additional observations from a re-analysis of the deposited data

How the results depend on the processing

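The subunits with the smallest p in each comparison kept the sign of their log2 fold changes wherever they were tested among the 17 alternatives (22 for the interaction). Ndufa4l2 and Cox7a1 did not pass the filter of 5 FPKM. Other filters, a fit without the trend, the replicate block and a fit of the compared groups alone cannot change a log2 fold change. Nor can leaving out libraries of groups outside the comparison. The counts of subunits past the adjusted test by limma stayed at 0 with the exceptions given here. With libraries scaled to the same median, 1 subunit was lower in L.J. than in control (Cox5b, -0.59). Under that scaling the median log2 fold change of the subunits was -0.37 in L.J. against control, 0.26 in busulfan plus L.J. against L.J. and 0.36 for the interaction. Leaving out 1 library at a time gave between 0 and 1 subunits higher in L.J. than in control, and between 0 and 1 lower with both treatments than with L.J., in each case Atp5s without L.J. replicate 2. Leaving out libraries moved the median from -0.24 to -0.06 for L.J. against control, from -0.13 to 0.06 for busulfan against control, from -0.13 to 0.03 for both against control, from -0.09 to 0.06 for both against busulfan, from 0.07 to 0.16 for both against L.J. and from 0.03 to 0.21 for the interaction. With the replicate block, 0 subunits passed in any comparison, so it changed no call of a subunit. Each replicate number occurs once in every group, so the block cannot move the median for L.J. against control, which stayed at -0.16. Over all genes, the calls of L.J. against control ran from 1 (without control replicate 3) to 1800 (without L.J. replicate 2), beside 27. The cause of these moves was not tested. FPKM without counts give no measure of depth, 3 libraries a group allow only wide intervals, and FPKM are shares, so that a change in a few very abundant genes moves every other value.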
